A study of Mus musculus with 7 samples.

Results

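The genes described here carry the names of proteins of the mitochondrial ribosome, and whether each product is part of it was not checked. They were taken by name, as every gene whose symbol on the array is Mrpl or Mrps followed by a number, without pseudogenes. Of 37074 gene names on the array 77 are such genes, measured by 119 of 56605 probes. The arrays carried RNA of the mammary gland of nulliparous FVB females in diestrus, aged 20 to 25 weeks, with 1 animal per array, 3 wild-type and 4 PRA transgenic. The PRA transgenic mice are bigenic, with CMV-GAL-4 as the transactivator and UAS-PR-A as its target, and so overexpress the A form of the progesterone receptor. The CMV promoter is not restricted to a mammary cell type. Gland RNA carried Cy5. The Cy3 channel of every array held Universal Mouse Reference RNA, pooled from 11 cell lines, so each log2 ratio gives the gland over that pool.

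The mitochondrial ribosome, or mitoribosome, sits in the mitochondrial matrix and translates only the few mRNAs of mitochondrial DNA, all of which code for subunits of the respiratory chain and the ATP synthase. Its RNA comes from mitochondrial DNA, whereas all of its proteins are encoded in the nucleus, made by cytosolic ribosomes and imported. Some of them have homologues in the bacterial ribosome and others were added during the evolution of mitochondria. The nuclear factors NRF1, GABP (an ETS factor) and YY1 are textbook regulators of nuclear genes for mitochondrial proteins.

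A promoter window of 250 bases before to 50 bases after the annotated start (RefSeq, GRCm38.p6) was matched by symbol for 68 of the 77 genes. No window was matched for Mrpl4, Mrpl13, Mrpl15, Mrpl19, Mrpl38, Mrpl54, Mrps28, Mrps34 and Mrps35. The ETS motif CCGGAAG stood, on either strand, in the windows of 25 of the 68 genes, or 36.8%, against 12.9% of 17492 protein-coding genes and 9.93% of all 27025 genes with a window. The NRF1 core GCGCATGC stood in 8 of the 68, or 11.8%, against 3.94% of protein-coding and 3.05% of all genes. The YY1 motif AAGATGGC stood in 12 of the 68, or 17.6%, against 3.57% of protein-coding and 3.19% of all genes, and for 8 of the 12 the match began after the start, at bases 12 to 37. The E-box CACGTG was in 5 of the 68 (7.35%, against 8.91% of protein-coding and 8.09% of all genes) and the GC box GGGCGG in 34 (50%, against 49.2% and 38.2%). These are matches of letters and not sites shown to be bound. At least 1 of the ETS, NRF1 and YY1 motifs stood in 37 of the 68 windows, and 2 of them in 8, or 11.8% against 1.72% of protein-coding genes.

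**Figure D1:**
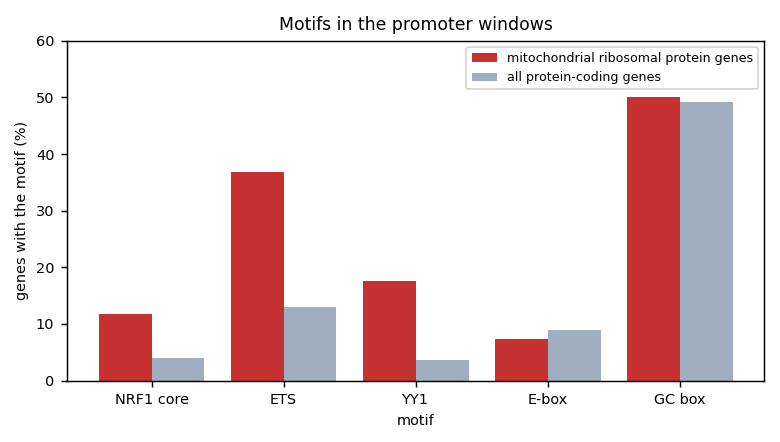
Share of genes (y axis, percent) whose promoter window holds each motif (x axis), for the 68 mitochondrial ribosomal protein genes with a window (red) and for 17492 protein-coding genes (grey). The red bar is above the grey one for NRF1 (11.8% against 3.94%), ETS (36.8% against 12.9%) and YY1 (17.6% against 3.57%), close to it for the GC box (50% against 49.2%) and below it for the E-box (7.35% against 8.91%).

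Of the 8 genes with 2 of these motifs 6 are printed below, together with the 90 bases before Mrpl46. The 6 are those with an NRF1 or ETS match in the last 90 bases before the start. Chosen in this way, they do not show how close to the start matches lie in general. Mrps12 and Mrps18b had no NRF1 or ETS match there, and an NRF1 match of Mrps18b began at base -223. Letters of a motif are in capitals, matches on the opposite strand are capitalized as they read on the printed strand, and every stretch runs 5′ to 3′ on the strand of its gene up to the last base before the start. In Mrpl32 the first capital run holds overlapping NRF1 matches on both strands, and 2 more matches follow it. The ETS match of Mrpl33 crosses the start and is not in capitals. In Mrpl17, Mrpl22 and Mrpl33 the NRF1 match begins 11, 33 and 12 bases before the start.
Mrpl17, chr7:105811088-105811177, minus strand: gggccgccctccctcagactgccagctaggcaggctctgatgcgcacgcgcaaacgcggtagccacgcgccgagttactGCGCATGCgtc
Mrpl22, chr11:58171574-58171663, plus strand: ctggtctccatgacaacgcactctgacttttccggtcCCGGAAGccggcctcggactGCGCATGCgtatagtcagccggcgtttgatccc
Mrpl32, chr13:14613038-14613127, minus strand: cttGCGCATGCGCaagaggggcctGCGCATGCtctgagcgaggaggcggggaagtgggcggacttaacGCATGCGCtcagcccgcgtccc
Mrpl33, chr5:31613861-31613950, plus strand: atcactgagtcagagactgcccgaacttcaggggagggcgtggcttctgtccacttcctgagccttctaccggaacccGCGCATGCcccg
Mrps18a, chr17:46110914-46111003, plus strand: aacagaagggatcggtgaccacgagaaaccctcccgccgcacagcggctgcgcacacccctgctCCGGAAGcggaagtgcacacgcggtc
Mrps27, chr13:99344696-99344785, plus strand: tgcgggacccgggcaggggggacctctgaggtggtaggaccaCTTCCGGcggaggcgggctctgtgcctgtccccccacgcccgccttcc
Mrpl46, chr7:78783090-78783179, minus strand: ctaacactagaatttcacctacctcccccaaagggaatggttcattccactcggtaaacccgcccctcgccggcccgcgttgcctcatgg

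Mrpl46 is shown because its start lies 42 bases from that of Mrps11, which is transcribed the other way, so that a large and a small subunit gene share 1 promoter region. Of the 68 genes 21, or 30.9%, had a start on the opposite strand, pointing away, within 300 bases, against 10.2% of protein-coding genes. Some of the other partners belong to mitochondrial gene expression as well, but most do not. Those named below were picked after all partners were seen, and how often such partners occur over all genes was not counted. Mrpl43 starts 116 bases from Twnk, the mitochondrial DNA helicase, Mrps12 starts 147 bases from Sars2, the mitochondrial seryl-tRNA synthetase, and Mrps27 starts 108 bases from Ptcd2. Mrpl49 lies 192 bases from Fau, which encodes a protein of the cytosolic small ribosomal subunit.

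All 77 genes were measured in the gland. Each had at least 1 probe whose Cy5 signal was well above background on all arrays of a genotype, and by the brightest such probe, which stands for the gene below, all 77 were well above background in Cy5 on all 7 arrays. Of the 119 probes 112 were tested in this sense, among 34288 probes and 22503 genes in all. The 7 too dim to test were second or further probes of Mrpl9, Mrpl23, Mrpl47, Mrpl48, Mrpl52, Mrps5 and Mrps18b. The 50 genes counted to the large subunit (Mrps18a and Mrps30 included, which carry a small subunit name) had a median wild-type log2 ratio of -0.07. The 27 counted to the small subunit by name alone, Mrps36 among them, had one of 0.05, against 0.05 over all genes. Single genes lay on either side of the reference. On all 7 arrays 23 of the 77 genes were above it and 20 below it, against 35.6% and 31.3% of all genes. Since no dye was swapped, a level against the reference cannot be told apart from a dye effect of the probe. The ratios are set against the pool for each gene by itself, and no gene's level can be set against that of another.

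Mrps6, a small subunit protein with a bacterial homologue, was above the reference on all 7 arrays (chromosome 16 of mm9, 92112223 to 92112282). Its log2 ratios were 1.45, 1.96 and 1.40 in wild-type and 1.82, 1.05, 1.13 and 1.17 in PRA transgenic glands. It was high in every gland, with wild-type replicate 2 and PRA transgenic replicate 1 the highest. Other genes above the reference in wild-type were Mrps21 at 0.80 ± 0.10, Mrpl20 at 0.80 ± 0.17 and Mrpl41 at 0.79 ± 0.13 (SD, n = 3). Mrpl35 read 0.83 ± 0.53 (SD, n = 3), but its reference signal was well above background on 1 of 7 arrays, so the ratio rests on a dim Cy3 signal. Genes below the reference included Mrpl19 at -0.98 ± 0.13, Mrpl13 at -0.77 ± 0.08, Mrpl28 at -0.71 ± 0.08, Mrpl15 at -0.67 ± 0.10 and Mrpl45, a protein near the mouth of the exit tunnel, at -0.51 ± 0.07 (SD, n = 3). These 5 large subunit genes were below the reference on every array.

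**Figure D2:**
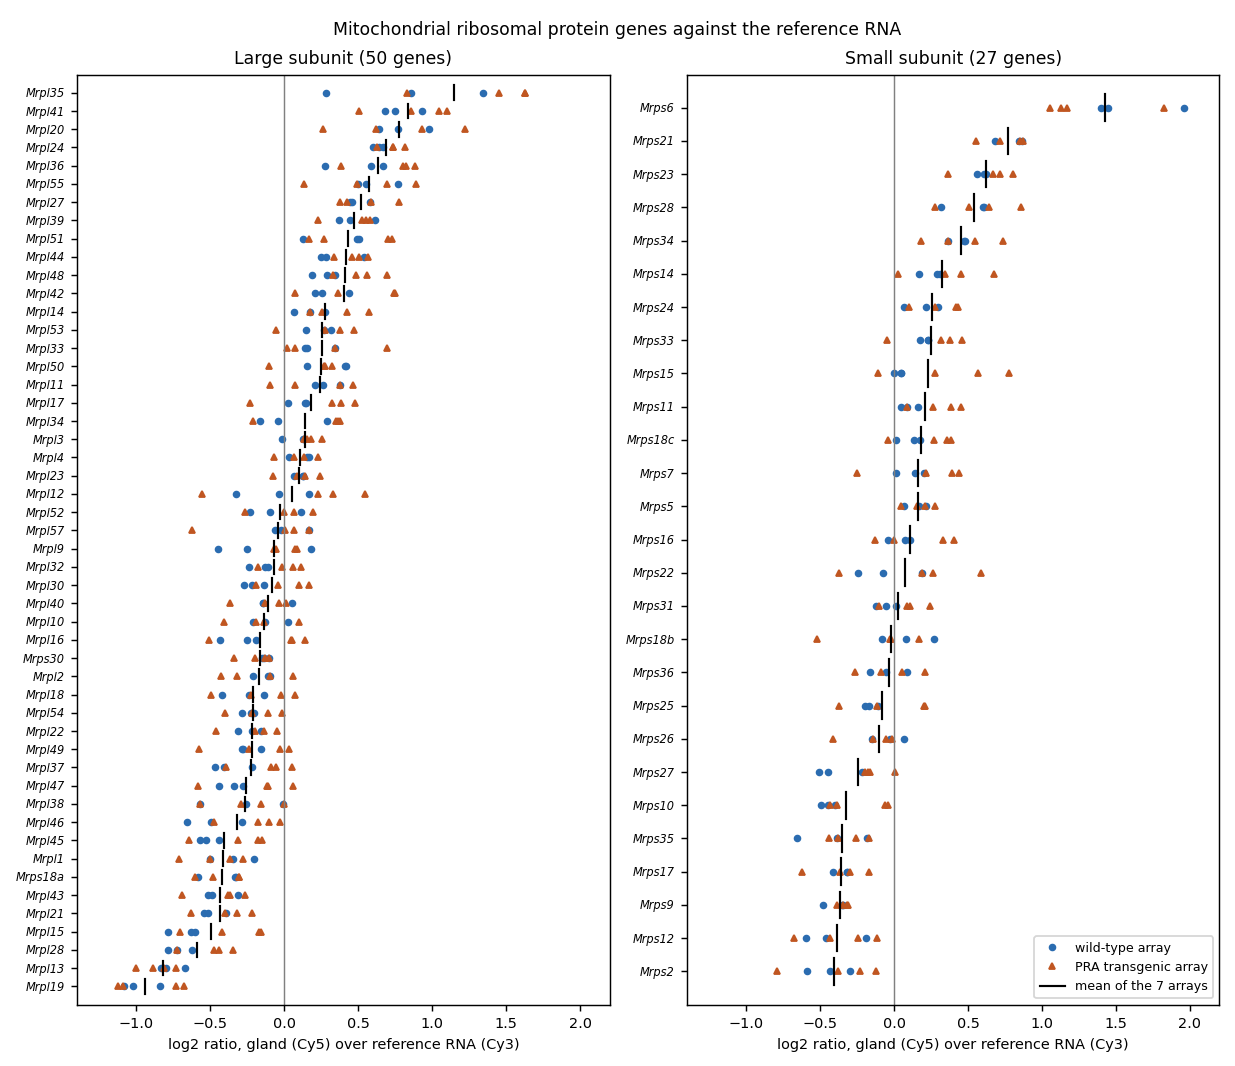
Log2 ratio of gland over reference RNA (x axis) for each of the 77 genes (y axis), by array, with wild-type arrays as blue circles, PRA transgenic arrays as orange triangles and the mean of the 7 arrays as a black bar. Wild-type means lie between -0.98 (Mrpl19) and 1.60 (Mrps6), and in nearly every gene the colors overlap.

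Mrps6 also had its own order of arrays, and it does not have its locus to itself. In the RefSeq annotation Slc5a3, which encodes the sodium and myo-inositol cotransporter, overlaps Mrps6 on the same strand, with 14 bases between the starts of both genes. A probe of Slc5a3 (A_51_P112762) read 1.29, 1.97 and 1.08 in wild-type and 2.10, 0.70, 1.02 and 1.27 in PRA transgenic glands. Wild-type replicate 2 and PRA transgenic replicate 1 were thus the 2 highest arrays for both genes, and PRA transgenic replicate 2 the lowest. Over the 7 arrays, which share their RNA and labeling, Pearson's r with Mrps6 was 0.93 for this probe and 0.96 for the other Slc5a3 probe, as a description only.

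The design asks how the glands of PRA transgenic mice differ from wild-type glands. No mitochondrial ribosomal protein gene passed the test of genotype, which at 3 against 4 glands does not show that none differed. With limma and Benjamini-Hochberg adjustment over all probes tested, 0 of the 77 genes had an adjusted p under 0.05, where 1 of 22503 genes did (0.00444%), an unnamed transcript with the array name ENSMUST00000118421. At an unadjusted P under 0.05 the count was 0 of 77 in either direction, against 3.6% of all genes with higher and 4.35% with lower values in the transgenics. The methods' t-test on the same values called 1 gene at this unadjusted level, Mrps27, and 0 after adjustment. The log2 fold change of the 77 genes had a median of 0.08, against 0.01 over all genes, and was above 0 for 57 of them (52.7% of all genes). It was 0.08 for the large and 0.07 for the small subunit.

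Mrps27, a small subunit protein found only in mitochondria, was the 1 gene of 77 whose genotypes did not overlap, against 4.59% of all genes with PRA transgenic glands higher and 4.52% with them lower. Its log2 ratios were -0.22, -0.51 and -0.44 in wild-type and -0.20, -0.16, 0.00 and -0.18 in PRA transgenic glands (chromosome 13 of mm9, 100185397 to 100185456). The genotypes nearly met, at wild-type replicate 1 and PRA transgenic replicate 1. The difference was 0.26 on the log2 scale with a standard error of 0.12, and limma gave an adjusted p of 0.599.

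Other large values belonged to genes with wide spread. Mrpl35, with 0.28, 0.86 and 1.34 in wild-type and 1.45, 1.63, 1.63 and 0.83 in PRA transgenic glands, differed by 0.56 on the log2 scale (standard error 0.30) against its dim reference signal and by 0.44 in Cy5 alone, and its groups overlapped. Mrps15, a homologue of a bacterial small subunit protein, had 0.04, 0.05 and 0.00 in wild-type and 0.57, 0.28, 0.78 and -0.11 in PRA transgenic glands, so that its log2 fold change came to 0.35 with a standard error of 0.21. For Mrps15 the wild-type glands lay close together, PRA transgenic replicates 1, 2 and 3 above them and replicate 4 below. Mrpl15 followed at 0.31 and Mrpl46, of the central protuberance, at 0.28. The lowest fold changes were those of Mrps6 at -0.31 (standard error 0.24), Mrps18b at -0.19, Mrpl50 at -0.14, Mrpl57 at -0.12 and Mrps26 at -0.12, and none of them had an unadjusted P under 0.05.

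**Figure D3:**
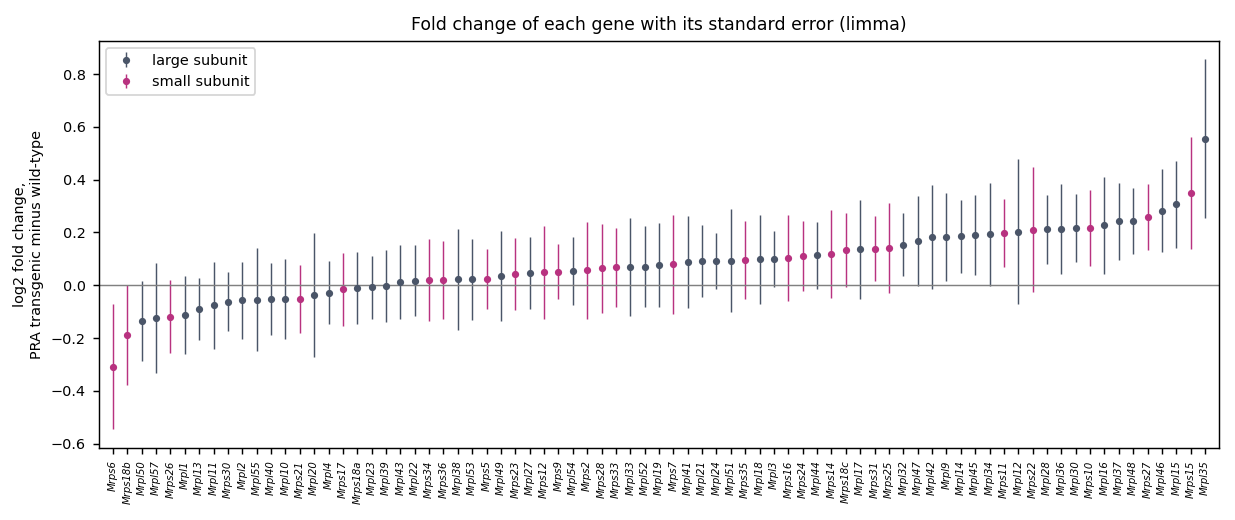
Log2 fold change of PRA transgenic minus wild-type glands (y axis) for each of the 77 genes (x axis, in order of the value), as points with bars of 1 standard error from limma, in grey for the large and magenta for the small subunit. Values run from -0.31 for Mrps6 to 0.56 for Mrpl35, 57 of 77 lie above 0, and most bars cross 0.

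The spread between animals had a pattern of its own that most of the genes shared. PRA transgenic replicate 4 was the lowest of the 7 arrays for 53 of the 77 genes, where it was the lowest for 16.2% of all genes. PRA transgenic replicate 3 was the highest for 32 and replicate 1 for 26 of the 77, against 13.6% and 18.6% of all genes. The mean log2 ratio over the 77 genes was -0.02, -0.02 and 0.08 in wild-type and 0.22, 0.10, 0.23 and -0.18 in PRA transgenic glands. The wild-type glands were close together, and the PRA transgenic glands lay both above and below them. PRA transgenic replicate 4 was below the mean of replicates 1 to 3 for 75 of the 77 genes, or 97.4% (51.1% of all genes), with a median difference of -0.35 on the log2 scale (-0.01 over all genes). The exceptions were Mrpl9 at 0.09 and Mrps9 at 0.03.

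**Figure D4:**
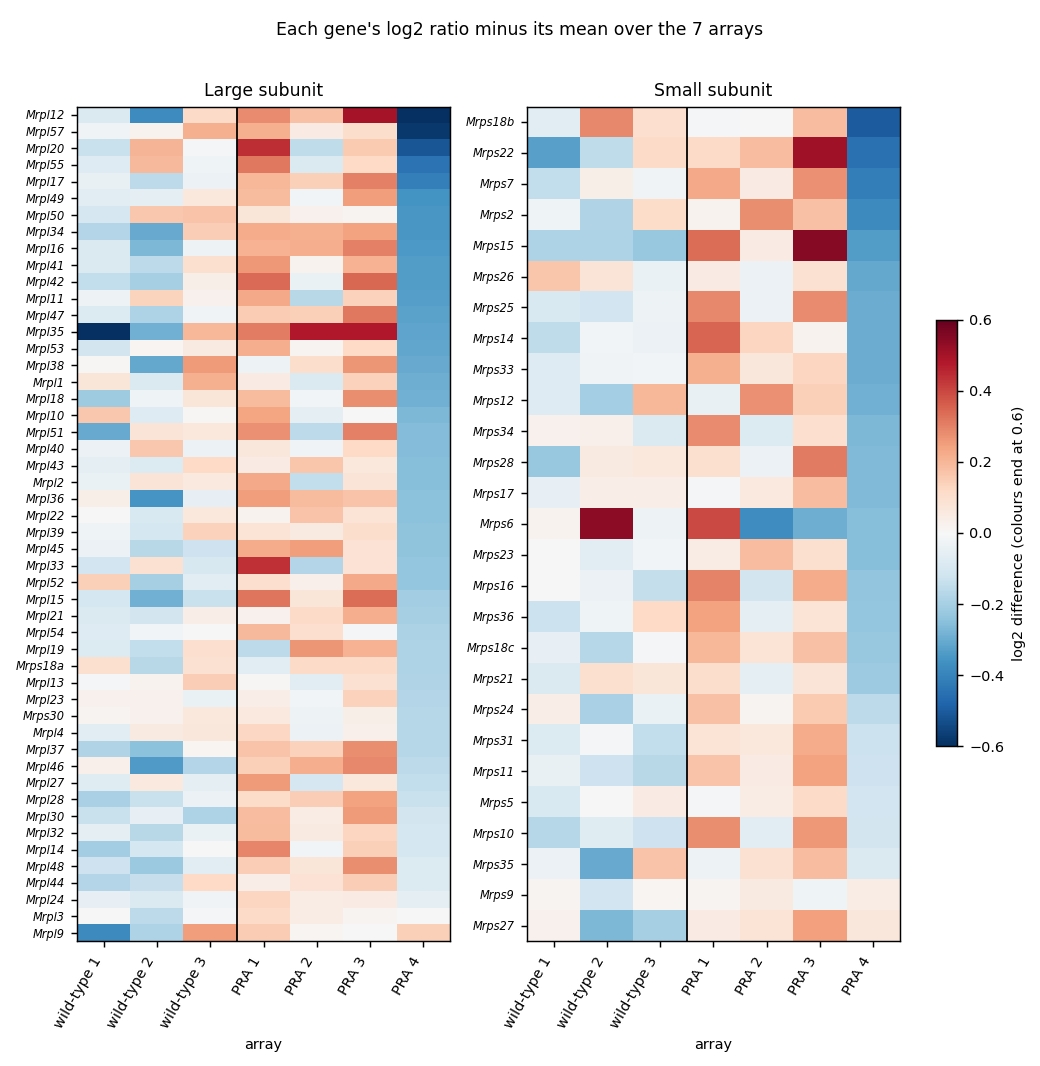
Each gene's log2 ratio minus its own mean over the 7 arrays (color, red above and blue below, ending at 0.6), with genes as rows in order of the value on PRA transgenic replicate 4 and arrays as columns, split by subunit, the black line separating the genotypes. The column of PRA transgenic replicate 4 is blue for nearly all genes, those of replicates 1 and 3 are mostly red, and Mrps6 has its own pattern.

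The shift appeared in Cy5, the gland RNA, and was near 0 in Cy3, the reference. In Cy5 alone, centered on each array's median, the mean log2 signal of the 77 genes was 3.75, 3.78 and 3.90 in wild-type and 3.99, 3.89, 4.02 and 3.58 in PRA transgenic glands. In the Cy3 reference the same means lay between 3.80 and 3.85 on all 7 arrays. PRA transgenic replicate 4 differed from the mean of replicates 1 to 3 by -0.39 in Cy5 and by -0.02 in Cy3. Each gland was read on 1 array, so the RNA quality and Cy5 labeling of that sample cannot be told apart from the animal.

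The size of the shift differed from gene to gene. It was largest for Mrpl12, a protein of the L7/L12 stalk that recruits translation factors, at -0.93, with -0.04, -0.33 and 0.16 in wild-type and 0.33, 0.23, 0.55 and -0.56 in PRA transgenic glands. Mrpl35 followed at -0.74, Mrps22, a mitochondria-specific small subunit protein, at -0.72 and Mrpl57 at -0.70. For Mrps22 the log2 ratios were -0.25, -0.07 and 0.19 in wild-type and 0.19, 0.26, 0.59 and -0.37 in PRA transgenic glands. Mrps15, Mrps6, Mrpl12, Mrpl35 and Mrps22 had the 5 largest SDs over the 7 arrays, of 0.33 to 0.50. Genes with little spread were Mrps9 with an SD of 0.06, Mrpl24, of the exit tunnel, and Mrpl3 with 0.08, and Mrps5 and Mrps30, both also with 0.08. The log2 ratios of Mrps9 stayed within -0.48 and -0.31 on all arrays. The median SD over the 7 arrays was 0.17 for the 77 genes and 0.27 for all genes.

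By place in the ribosome the shift was given as a mean over genes. The difference of PRA transgenic replicate 4 from the mean of replicates 1 to 3 was -0.37 for the large and -0.36 for the small subunit. It was -0.37 for 29 large subunit genes listed with a bacterial homologue and -0.36 for 19 listed without, Mrps18a among the latter. For the small subunit it was -0.35 for both the 16 genes listed with a homologue and the 9 listed without. Mrpl55, Mrpl57, Mrps18b and Mrps36 were in neither kind of list. Around the exit tunnel (8 genes) it was -0.35, at the central protuberance (6 genes) -0.34, and in the head of the small subunit (7 genes) -0.32. At the L7/L12 stalk (3 genes) it was -0.55, to which Mrpl12 contributed -0.93, Mrpl11 -0.40 and Mrpl10 -0.33. By motif, the median difference was -0.36 for the 25 genes with and -0.33 for the 43 without the ETS motif, -0.33 for the 8 with and -0.36 for the 60 without the NRF1 core, and -0.39 for the 12 with and -0.35 for the 56 without the YY1 motif. These differences between groups of genes were not tested.

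Leaving out PRA transgenic replicate 4 changed the comparison of genotypes. This array was singled out by the values of these same genes. As it was the lowest for most of them, removing it raises their PRA transgenic means. The counts below follow in part from that choice and do not show a difference of genotype. Without this array 12 of the 77 genes had an unadjusted P under 0.05 with PRA transgenic glands higher (5.89% of all genes) and 0 with them lower (5.41%). The 12 were Mrpl12, Mrpl15, Mrpl16, Mrpl17, Mrpl28, Mrpl35, Mrpl37, Mrpl45, Mrpl46, Mrpl47 and Mrpl48 of the large and Mrps15 of the small subunit, and the log2 fold change of Mrps15 came to 0.51 with a standard error of 0.16. The genotypes did not overlap, with PRA transgenic glands higher, for 28 genes (10.5% of all genes), and 70 of the 77 fold changes were above 0, with a median of 0.16 against 0.02 over all genes. Still 0 of the 77 genes had an adjusted p under 0.05 in limma, and the lowest was 0.329. Leaving out any other single array gave 0 to 2 genes at an unadjusted P under 0.05.

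Arrays differed in other ways that run beside this result. Markers of skeletal muscle, of which 9 of 10 listed were tested, averaged 2.03 and 3.07 on wild-type replicates 1 and 3 and 2.77 on PRA transgenic replicate 4, and -1.11 to -0.82 on the other 4 arrays. Markers of T cells (6 of 6) averaged 2.31 on wild-type replicate 1 and -0.31 to 0.48 elsewhere, and those of B cells (3 of 5) 0.68 and -2.32 to -1.49, although lymph nodes had been excised. Luminal epithelial markers (10 of 10) averaged 3.26 to 3.90, basal ones (5 of 5) 2.67 to 3.01, white adipocyte ones (8 of 8) 5.49 to 6.24, brown adipocyte ones (6 of 7) 3.46 to 4.43, macrophage ones (5 of 5) 1.32 to 2.50 and endothelial ones (5 of 5) 4.97 to 5.76, all on the log2 ratio scale. Proliferation markers (6 of 6) lay at -4.34 to -1.84. In these ratios PRA transgenic replicate 4 was the highest array for macrophage markers, the lowest by a small margin for B cell markers and within the range of the others for the other lists.

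In Cy5 alone, markers of brown adipocytes were on average lowest on the same array as the 77 genes. Their mean log2 signal, centered on each array's median, was 3.10, 2.07 and 3.44 in wild-type and 3.16, 3.27, 3.27 and 1.68 in PRA transgenic glands. PRA transgenic replicate 4 was below the mean of replicates 1 to 3 by a log2 difference of -1.55. Ucp1, the uncoupling protein that defines brown fat, read 3.80, 1.46 and 4.98 in wild-type and 4.36, 5.15, 4.51 and 0.13 in PRA transgenic glands, so that PRA transgenic replicate 4 was lowest and wild-type replicate 2 next. Cidea, Cox7a1 and Cox8b were also lowest on PRA transgenic replicate 4 in Cy5, whereas Dio2 was lowest on wild-type replicate 2 and Ppargc1a on PRA transgenic replicate 2. The mean ratio of the list did not show this, as its mean Cy3 signal was lower there too, at -2.01 against -1.36 to -0.50 on the other arrays. This Cy3 difference was uneven. Ucp1 read -4.73 on PRA transgenic replicate 4 in Cy3 and -3.19 to -0.41 elsewhere, whereas Cox7a1 read 1.83 and 1.96 to 2.24. Cy3 was well above background on 5 of 7 arrays for Ucp1 and on 2 of 7 for Dio2. In the mean ratio wild-type replicate 2 was lowest at 3.46, and PRA transgenic replicate 4 read 3.73. Ratios of single markers were not compared. Cy3 held the same pool on every array, so the Cy5 values of this list cannot be read as gland RNA alone. Of the marker lists only this one is given in Cy5, which was chosen after its values were seen. In whole glands fewer cells of a type and less RNA per cell cannot be told apart, and the part of cell types in the result was not tested.

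Pgr, the gene of the transgene product, read 7.05, 4.30 and 4.04 in wild-type and 5.38, 4.72, 4.49 and 3.32 in PRA transgenic glands, but its Cy3 signal was well above background on 0 of 7 arrays. In Cy5 the genotypes differed by 0.03 on the log2 scale, and whether the probe detects the transgene was not tested. All arrays lay on 1 slide, with wild-type in row 1 and PRA transgenic in row 2, and position on the slide therefore cannot be told apart from genotype. In Cy5 62.66% to 66.15% of probes were well above background on wild-type and 56.66% to 60.23% on PRA transgenic arrays. In Cy3, which held the same pool throughout, these shares were 53.25% to 53.99% and 47.23% to 50.62%. The cause of this difference was not tested.

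Genes with several probes add a limit. At the level of probes 2 of the 112 had an unadjusted P under 0.05 with PRA transgenic glands higher and 0 with them lower (4.54% and 4.48% of all probes), and 4 did not overlap between genotypes, all higher in PRA transgenic glands (5.42% of all probes). They were the brightest probe of Mrps27 and dimmer probes of Mrps15, Mrpl48 and Mrps9. The dimmer Mrps15 probe (A_52_P563470, chromosome 4 of mm9, 125728892 to 125728951) read -0.20, -0.01 and -0.46 in wild-type and 0.04, 0.44, 0.37 and 0.42 in PRA transgenic glands. Its difference was 0.54 on the log2 scale with a standard error of 0.16, and limma gave an adjusted p of 0.426. On this probe PRA transgenic replicate 4 was among the highest arrays, whereas it was the lowest on the brighter probe of the same gene (A_65_P15383, 125732712 to 125732771). A dimmer Mrpl48 probe (A_66_P126316, chromosome 7 of mm9, 107694484 to 107694543) read -0.34, 0.03 and -0.03 in wild-type and 0.25, 0.19, 0.45 and 0.47 in PRA transgenic glands, with replicate 4 highest. Its difference was 0.45 on the log2 scale, and limma gave an adjusted p of 0.453. That difference came from the reference channel, as PRA transgenic arrays were different by -0.52 in Cy3 and by -0.07 in Cy5, and Cy3 was well above background on 5 of 7 arrays. The brightest Mrpl48 probe had PRA transgenic replicate 4 at 0.33, below replicates 1 to 3 at 0.56, 0.49 and 0.69. Another dimmer Mrpl48 probe had the same order, with replicate 4 at 0.19 and replicates 1 to 3 at 0.49, 0.54 and 0.72. The 2 probes of Mrps15, and 1 of the 3 tested probes of Mrpl48 against the other 2, thus disagreed on replicate 4. So did the probes of Mrps18a and Mrps14, whose brightest probes had replicate 4 lowest of all arrays, at -0.60 and 0.03. The dimmer Mrps18a probe read 0.12, 0.11, 0.12 and 0.13 in PRA transgenic glands, with replicate 4 highest among them. The dimmer Mrps14 probe read 1.32, 1.98, 0.69 and 1.49 there, with Cy3 well above background on 1 of 7 arrays. For Mrps23 and Mrps5 tested probes also lay on opposite sides of the reference on all arrays. Mrps23 read 0.37 to 0.81 on its brightest probe and -0.49 to -0.11 on the other, and Mrps5 read 0.05 to 0.28 and -0.69 to -0.11. Of the 28 genes with more than 1 tested probe, 13 had log2 fold changes of both signs among their probes.

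Genes that act with the mitoribosome were looked at in 6 lists of 80 genes tested, of which Mrpl57 is also one of the 77. With limma 4 of the 80 had an unadjusted P under 0.05, all 4 higher in PRA transgenic glands, where 3.6% of all genes were, and 0 had an adjusted p under 0.05. The genotypes did not overlap for 5 with PRA transgenic glands higher and 4 with them lower, against 4.59% and 4.52% of all genes. These counts were near those shares. Ppargc1b, a coactivator of nuclear genes for mitochondria, read 0.34, -0.04 and 0.34 in wild-type and 0.91, 0.77, 0.91 and 0.44 in PRA transgenic glands, and its genotypes did not overlap. The difference was 0.54 on the log2 scale with a standard error of 0.17, and limma gave an adjusted p of 0.453. The other coactivator, Ppargc1a, read 0.95, 0.70 and 0.57 in wild-type and 1.16, 0.05, 0.67 and 0.52 in PRA transgenic glands, with overlapping groups. Rnmtl1, a methyltransferase of mitochondrial ribosomal RNA, read -0.22, -0.31 and -0.38 in wild-type and 0.01, -0.12, 0.20 and -0.01 in PRA transgenic glands. Wars2, the mitochondrial tryptophanyl-tRNA synthetase, read 0.19, -0.39 and -0.35 in wild-type and 0.09, 0.41, 0.39 and 0.38 in PRA transgenic glands. Peo1, the array's name for Twnk, whose start lies beside that of Mrpl43, read -1.41, -1.34 and -0.97 in wild-type and -1.01, -0.63, -0.67 and -0.97 in PRA transgenic glands. Rnmtl1 did not overlap between genotypes, whereas Wars2 and Peo1 did.

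By list, the translation factors (15 genes) had a median log2 fold change of 0.16, the aminoacyl-tRNA synthetases (17) 0.08, mitoribosome proteins with other names (7) 0.07, mitochondrial DNA transcription and replication (12) 0.02, assembly factors (22) 0.00 and regulators (7) -0.03. The shift of PRA transgenic replicate 4 from the mean of replicates 1 to 3 ran through these lists in unequal measure. It was -0.34 for mitoribosome proteins with other names, -0.30 for the synthetases, -0.29 for the regulators, -0.28 for the translation factors, -0.22 for DNA transcription and replication and -0.14 for the assembly factors. Of the 80 genes 37 were lowest on PRA transgenic replicate 4, against 16.2% of all genes.

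Families outside gene expression were set beside the 77 genes as a description. The Nduf genes (45) were taken by name with all names kept, and most encode subunits or assembly factors of respiratory complex I. These 45 averaged 0.77, 0.85 and 0.82 in wild-type and 1.21, 0.82, 1.16 and 0.52 in PRA transgenic glands. The names Timm and Tomm followed by a number took 24 genes, of which the opposite-strand transcript Tomm6os was left out after the values were seen. The other 23, of the protein import machinery, averaged -0.08, -0.10 and 0.02 in wild-type and 0.22, 0.08, 0.24 and -0.28 in PRA transgenic glands. Both families had PRA transgenic replicate 4 lowest and replicates 1 and 3 highest, as the mitoribosome had. The names of cytosolic ribosomal proteins took 99 genes, of which 16 were left out in the same way (Rps6k kinases, Rps19bp1 and pseudogenes). The other 83, of the second ribosome of the cell, averaged 0.04, 0.00 and 0.08 in wild-type and 0.01, 0.04, 0.07 and 0.01 in PRA transgenic glands. The difference of PRA transgenic replicate 4 from the mean of replicates 1 to 3 was -0.55 for Nduf, -0.46 for Timm and Tomm and -0.03 for cytosolic ribosomal protein genes. With all names kept it was -0.38 and -0.03 for the last 2 families. On all 7 arrays 39 of the 45 Nduf genes were above the reference and 1 was below it.

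**Figure D5:**
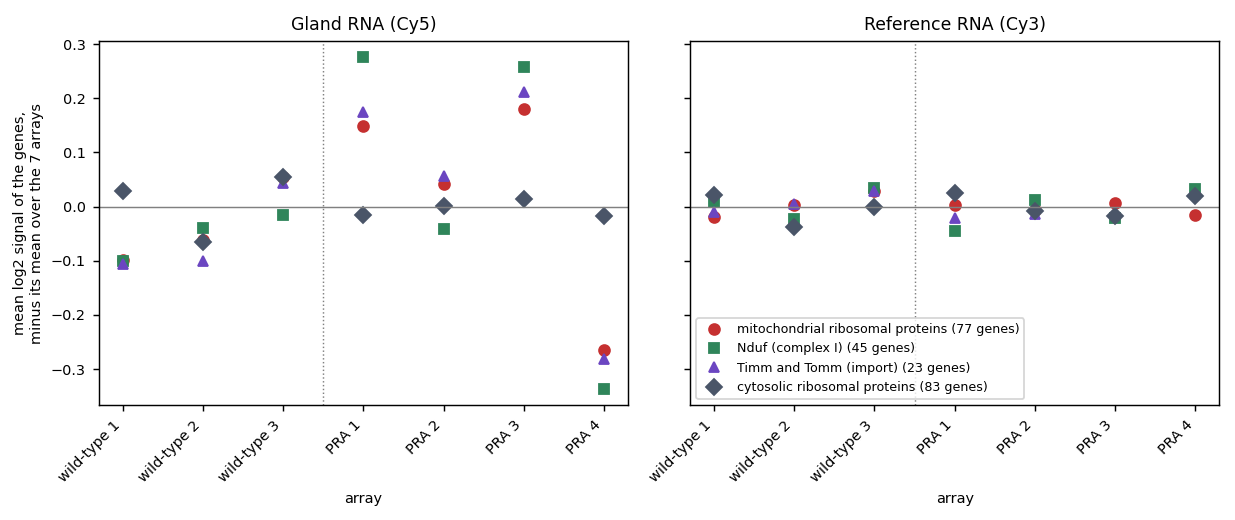
Mean log2 signal of each gene family, minus its mean over the 7 arrays (y axis), by array (x axis), in the gland RNA (Cy5, left) and in the reference RNA (Cy3, right), each centered on the array's median, with points for 77 mitochondrial ribosomal protein, 45 Nduf, 23 Timm and Tomm, and 83 cytosolic ribosomal protein genes. In Cy5 the 3 mitochondrial families are lowest on PRA transgenic replicate 4 and highest on replicates 1 and 3 while cytosolic ribosomal proteins stay near 0, and in Cy3 every family stays near 0.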

How the data were processed

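For each of the 7 arrays the authors deposited the Agilent Feature Extraction output (version 12.0 per the processing notes, 11.5.1.1 per the file headers), whose processed intensity in each channel is background-subtracted and dye-normalized within the array, with a flag (unit: other, 0 or 1) for signal well above background. The authors also deposited log2 ratios in a series table, with each probe centered on its median over the arrays. The files give probe positions on mm9.

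Control and outlier spots were left out, spots of a probe averaged, and log2 of processed Cy5 over Cy3 compared between genotypes in limma (version 3.58.1, run under R 4.3.3) by lmFit and eBayes, adjusting by Benjamini-Hochberg. Tested probes were those with Cy5 well above background in every array of either genotype, and the brightest tested probe stands for a gene. Saturated spots were absent. Precision is limited by the number of arrays. The steps were tested on simulated data. Genes named are those with an unadjusted P under 0.05 or genotypes that do not overlap, and the 5 highest and 5 lowest by fold change, by SD and by wild-type level. Among genes of the other lists, those with P under 0.05 and Ppargc1a are named, and any further name was chosen after its values were seen. Fau, Ptcd2, Sars2 and Slc5a3 are of that kind. The members, lists and rules were chosen with earlier results of these data known. Promoter sequences and gene overlaps come from RefSeq (GRCm38.p6). Alternatives were normexp background correction with offset 50 and loess, the series table, centering or quantile normalization of arrays, Cy5 alone, other filters, the median over a gene's probes, the methods' t-test, a replicate block and each array left out. Slide as a block was not run, since there was 1 slide. Same-numbered arrays of the genotypes did not deviate together (r of 0.0998, -0.297 and 0.0362 for numbers 1 to 3), so the numbers were not used to pair animals.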

Additional observations from a re-analysis of the deposited data

Results flagged for a closer look

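Among the PRA transgenic glands 1 array stood apart from the other 3 in 6 of the 59 results tested for this, by the gap to the nearest array as a share of the whole range (Dixon's test). Chance alone does so in about 1 independent group of 20. The 59 results are not independent, as they share arrays and genes, and some genes were picked for extreme values. The count of 6 can therefore not be set against that rate. For Mrps6 PRA transgenic replicate 1 was high at 1.82 (gap 0.848 of the range) and for Wars2 it was low at 0.09 (0.905). PRA transgenic replicate 4 was low for Mrpl50 at -0.10 (0.862), for the mean of the 8 exit tunnel genes at -0.10 against 0.23, 0.23 and 0.28 (0.885) and for the mean of the 7 regulators at -0.54 (0.857), and high for the mean of the skeletal muscle markers at 2.77 (0.931). The mean over all 77 genes was not among these results.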

How the results depend on the processing

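No alternative gave a mitochondrial ribosomal protein gene an adjusted p under 0.05, and PRA transgenic replicate 4 was lowest for 49 to 60 of the 77 genes under every alternative that kept it. Counts at an unadjusted P under 0.05 rest on few arrays. In place of 0 genes, quantile normalization, the median over a gene's probes and the methods' t-test each gave 1 (9.63%, 8.21% and 8.52% of all genes, in either direction, and 7.95% without an alternative) and the replicate block 4 (9.13%), in which PRA transgenic replicate 4, whose number has no wild-type partner, does not enter the estimate. Leaving out 1 array gave 0 to 12 (5.78% to 11.3% of all genes), with 12 without PRA transgenic replicate 4. Leaving out the 3 arrays with high muscle markers, chosen after seeing the data, left 1 wild-type gland, so no count is given. PRA transgenic replicate 4 is 1 of the 3, so high muscle markers and the low values of that array cannot be told apart in this way. Genotypes did not overlap for 0 genes after normexp and loess or centering (7.94% and 9.23% of all genes), 2 in Cy5 alone (8.69%), 4 after quantile normalization or with the median over probes (11.8% and 9.34%), and 1 to 28 with 1 array left out (11.4% to 18.9%), in place of 1 (9.11%). The replicate block made the median log2 fold change 0.16 in place of 0.08 and changed no call at an adjusted p. Normexp and loess left 7 genes below the reference on all arrays in place of 20. Of the 80 other genes, 10 after normexp and loess (7.03% of all genes) and in the methods' t-test, 7 after quantile normalization and with the median over probes, 8 with both channels above background (7.61%) and 0 to 10 with 1 array left out (0 without wild-type replicate 2, 10 without PRA transgenic replicate 4) had an unadjusted P under 0.05, in place of 4. Not all of these were higher in PRA transgenic glands, as the 4 were. After normexp and loess, and again in the t-test, 6 were higher and 4 lower. With both channels above background 7 were higher and 1 lower, after centering 3 and 2, and without PRA transgenic replicate 1 3 and 1. Quantile normalization moved the median of the cytosolic ribosomal protein genes to 0.061 and gave 66 of 77 fold changes above 0 in place of 57. Signs turned for Mrpl57 (0.051 with the replicate block, and -0.21 to 0.051 with 1 array left out), Mrps26 (0.046 in Cy5 alone), Ppargc1a (-0.33 to 0.043 with 1 array left out) and the wild-type level of Mrps5 (-0.094 with the median over probes), Mrps30 (0.058 after normexp and loess) and Mrps15 (-0.0075 after quantile normalization, -0.097 with the median over probes). The cause of these changes was not tested.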
